A study of Mus musculus with 9 samples.

Results

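The BCL2 family decides at the mitochondrion whether a cell lives or dies, and 10 of its genes were followed here through the RNA of 3 splenic B cell subsets of the mouse. They are 10 of the 24459 rows of the deposited expression table, taken by exact gene symbol. Bcl2, Bcl2l1 (encoding BCL-XL), Mcl1 and the Bcl2a1 copies Bcl2a1a, Bcl2a1b and Bcl2a1d (encoding A1) are anti-apoptotic. Bax is a pore-forming effector, and Bcl2l11 (BIM), Bbc3 (PUMA) and Pmaip1 (NOXA) are BH3-only genes. The rule is a list of gene names with no threshold on a measured value, though the list was drawn up with earlier results of these data known.

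In healthy cells the anti-apoptotic proteins hold effectors and BH3-only proteins in check, and when BH3-only proteins are in excess BAX and its relative BAK open the outer mitochondrial membrane and release cytochrome c. Mature B cells depend on BAFF receptor and B cell receptor signals that sustain MCL1, BCL2 and A1, and BIM is the best known death signal for B cells deprived of BAFF. NOXA binds chiefly MCL1 and A1. Transcript levels are not protein levels, and MCL1 and NOXA in particular are turned over quickly as proteins.

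RNA-seq had been run on 9 libraries, 3 per subset. Follicular (FO) B cells were B220+ IgM int CD21 int CD23+ CD93- and IgD high. BDL cells had the same markers apart from IgD, which was low or absent, and marginal zone (MZ) B cells were B220+ IgM high CD21 high CD23- CD93-. All came from unmanipulated mice aged 8 to 10 weeks, pooled 5 to a sort, so that each library averages animals, and the mice carry no allele or treatment that separates the subsets. The labels give the strain as C57/BL6 whereas the methods of the study name B10.PL. Each of the 3 sort dates supplied 1 library of every subset, and a replicate number stands for a date. The p-values below measure the spread between these pooled libraries.

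The unit is FPKM, a fragment count scaled to transcript length and library size, so levels of different genes can be set side by side. Differences are on the log2(FPKM + 0.1) scale and were tested with limma over the 11597 rows that averaged 0.5 FPKM or more, with Benjamini-Hochberg adjusted p-values. A gene passed at an adjusted p under 0.05. All 10 members entered the test. The table holds no counts. From the steps between low FPKM values the libraries had 0.908 to 1.22 times the depth of FO replicate 1, which puts roughly 85 to 384 fragments on Bcl2l1 and 98 to 357 on Bbc3, the members with the lowest levels.

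Marker genes followed the labels with exceptions in Cd93 and, between BDL and FO, in the MZ list. IgD itself was not analysed here. FO and BDL cells were both sorted as CD93-, but Cd93 transcripts averaged more in BDL than in FO (given below). By flow cytometry, the study also found more CD93 protein on BDL than on FO or MZ cells. The 6 general B cell markers summed to between 3226 and 4506 FPKM in every library, and 0 passed in limma in any comparison (0 to 2 had an unadjusted p under 0.05). Against FO cells, MZ cells had 5 of 6 MZ markers higher and 4 of 5 FO markers lower. For BDL over FO, 2 of the 6 MZ markers were higher and 0 lower (2 and 2 at an unadjusted p under 0.05 in limma). Yet the MZ list summed to 212 to 226 FPKM in BDL, 254 to 269 in FO and 933 to 1089 in MZ. Of the 5 FO markers, 0 passed between BDL and FO. Of the T cell list, 6 of 7 genes had a mean under 0.5 FPKM in every subset. The exception was Lck, and with it the list summed to 18.8 to 23.6 FPKM in BDL against 9.65 to 10.99 in FO and 7.49 to 13 in MZ. The myeloid list summed to 93.4 to 128 FPKM in BDL, 102 to 111 in FO and 64.7 to 83.9 in MZ. The germinal centre list summed to 31.5 to 37.7 FPKM in FO, 28.7 to 31.0 in BDL and 9.87 to 11.6 in MZ. In each subset 4 of its 6 genes had a mean under 0.5 FPKM, so these sums rest on few genes. The plasma cell list summed to 184 to 221 FPKM in FO, 119 to 198 in BDL and 224 to 296 in MZ. The NK and erythroid lists stayed at or below 12.1 and 8.04 FPKM in any library. Proliferation markers summed to 27.98 to 30.4 FPKM in FO, 37.4 to 40.9 in BDL and 34.2 to 44.0 in MZ. Of the 7 tested, 6 were higher in BDL than in FO (median log2 difference 1.14), and 5 were higher and 1 lower for MZ over FO (1.31). Transcripts of Cd93, a transitional cell marker, averaged 12.5 FPKM in BDL and 3.90 in FO, and the transitional list summed to 508 to 767 FPKM in BDL, 362 to 430 in FO and 411 to 533 in MZ. Medians over the genes tested did not always follow these sums. For MZ over FO the median log2 difference was -0.72 for 4 transitional genes (1 higher, 2 lower). It was 0.27 for 7 myeloid genes (2 higher, 1 lower). For BDL over FO it was 0.51 for the transitional genes (1 higher, 0 lower) and 0.23 for 4 plasma cell genes (0 higher, 0 lower). The part of these gene groups in the results below was not tested.

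The 3 Bcl2a1 members need their sequences beside their values, because they are near copies on the same chromosome. On NCBIM37 (mm9) Bcl2a1a lies at chr9:88851738-88857254 on the plus strand, Bcl2a1b at chr9:89094047-89102665 on the plus strand and Bcl2a1d at chr9:88618126-88626708 on the minus strand. Their coding sequences are each 519 bases long and vary at 12 positions, of which 6 fall in the first 60 bases. That stretch is shown because it holds 6 of the 12 variable positions close together, so that the differences can be seen side by side. Capitals mark the bases that vary among the 3.
Bcl2a1a: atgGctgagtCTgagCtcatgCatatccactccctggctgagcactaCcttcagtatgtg
Bcl2a1b: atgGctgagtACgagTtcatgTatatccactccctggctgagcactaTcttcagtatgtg
Bcl2a1d: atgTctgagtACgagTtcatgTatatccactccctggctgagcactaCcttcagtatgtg

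Counted from the start codon, Bcl2a1a differs from Bcl2a1d in this stretch by G4T, C11A, T12C, C16T and C22T, and over the whole coding sequence by 7 positions. Bcl2a1a and Bcl2a1b differ at 11 and Bcl2a1b and Bcl2a1d at 6, for identities of 97.88%, 98.65% (Bcl2a1a with Bcl2a1d) and 98.84%. Of all 50-base windows of its transcript, 31.2% are found in no other Bcl2a1 transcript for Bcl2a1a, 42.6% for Bcl2a1b and 16% for Bcl2a1d. How the authors' counting split reads that fit several copies is not given in the sources used here, so the separate levels of the 3 rows are uncertain and their sum is also given.

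The stretches upstream of the transcription start are alike as well. They are shown because the 3 rows move together. The rows may share reads, and the part of shared reads or of these stretches in that was not tested. The stretches come from RefSeq on GRCm38.p6, a newer build than that of the expression table. Each is the 250 bases before the start, and capitals mark GAGGAAGT, a core of the kind bound by PU.1, a transcription factor of B and myeloid cells. The motif was picked after the windows had been read. They lie at chr9:88956670-88956919 on the plus strand, chr9:89199023-89199272 on the plus strand and chr9:88731851-88732100 on the minus strand.
Bcl2a1a: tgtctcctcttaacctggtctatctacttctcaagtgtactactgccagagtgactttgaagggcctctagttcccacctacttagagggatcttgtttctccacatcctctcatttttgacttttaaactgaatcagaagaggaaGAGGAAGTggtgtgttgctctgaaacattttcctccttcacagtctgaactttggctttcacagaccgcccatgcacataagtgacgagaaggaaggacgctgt
Bcl2a1b: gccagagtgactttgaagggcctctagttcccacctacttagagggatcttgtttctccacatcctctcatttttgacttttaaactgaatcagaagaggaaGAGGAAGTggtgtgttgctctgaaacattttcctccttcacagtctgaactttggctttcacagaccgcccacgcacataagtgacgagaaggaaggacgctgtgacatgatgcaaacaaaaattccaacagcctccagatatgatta
Bcl2a1d: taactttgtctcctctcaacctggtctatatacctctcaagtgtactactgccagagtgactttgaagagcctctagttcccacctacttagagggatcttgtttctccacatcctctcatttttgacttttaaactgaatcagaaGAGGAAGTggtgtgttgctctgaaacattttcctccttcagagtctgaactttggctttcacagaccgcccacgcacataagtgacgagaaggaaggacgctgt

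Over windows of 300 bases (250 before the start and 50 after), GAGGAAGT was found on either strand in 3.2% of 32851 RefSeq windows, and among the members in Bcl2a1a, Bcl2a1b and Bcl2a1d. The AP-1 motif TGANTCA was in the same 3 members and in 7.81% of all windows. The FOXO core GTAAACA was in Bbc3 and Bcl2l11 and in 3.65% of all windows, and the NF-kappaB consensus in Bbc3 and Bcl2l1 and in 8.46%. The windows used here covered 9 of the 10 members, and the 32851 windows do not cover every chromosome. These 9 members had 14 windows, so some had several. A member is named if any of its windows matched, whereas the shares are per window. The longest run shared by the 3 Bcl2a1 windows was 84 bases and did not hold GAGGAAGT. These matches describe letters only, and no binding was measured.

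**Figure D1:**
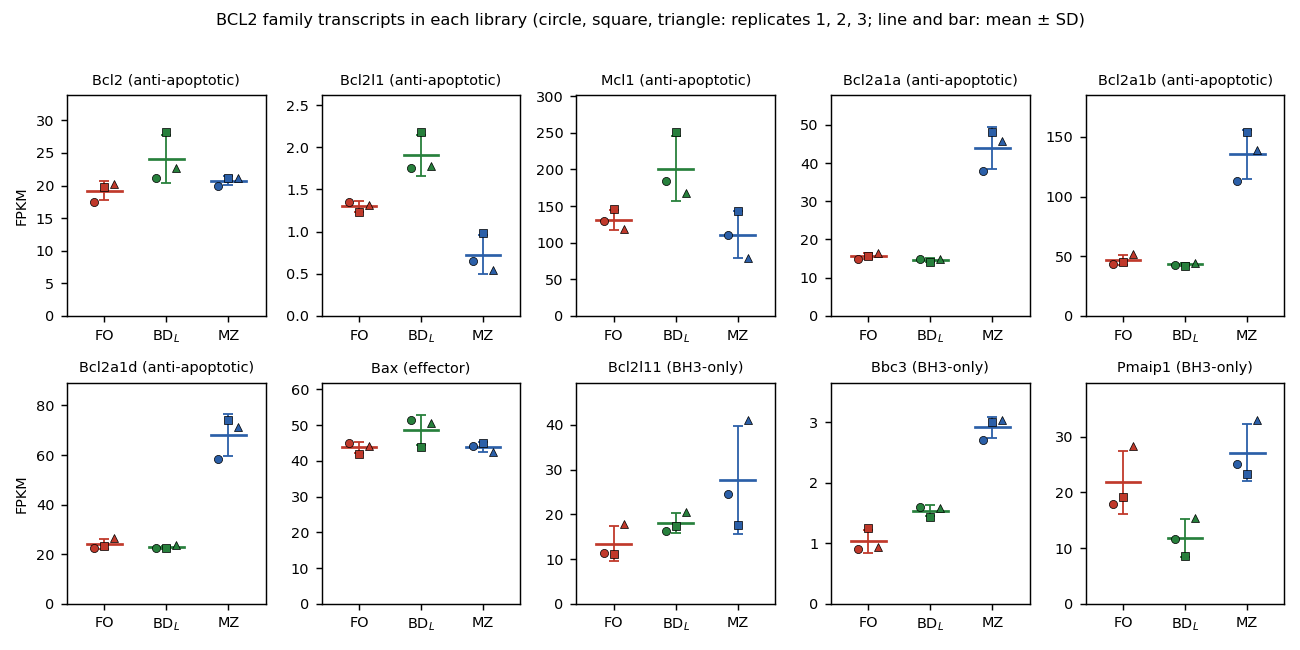
FPKM (y axis, linear from 0) of each BCL2 family member in the 3 libraries of FO, BDL and MZ cells. Each point is a library, and the line and bar give the mean and SD of 3 libraries. The 3 Bcl2a1 rows stand far above FO and BDL in every MZ library, Bbc3 steps upward from FO through BDL to MZ, and Pmaip1 is lowest in BDL.

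Levels differed widely between members. Mcl1 was the most abundant member in FO and BDL, with 41.2% and 51.4% of the members' summed FPKM. In MZ it made up 23% and Bcl2a1b 28%, but the 2 genes were close in MZ replicates 1 and 2 (113 and 111 FPKM, 154 and 143 FPKM for Bcl2a1b and Mcl1) and apart in replicate 3 (139 and 78.9), and the separate levels of the Bcl2a1 rows are uncertain. Bcl2l1 and Bbc3 each stayed under 1% of that sum in every subset. In bulk samples fewer cells with a transcript and less of it per cell cannot be told apart.

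At an adjusted p under 0.05 more members passed between MZ and either other subset than between BDL and FO, which is also so of all rows. Between BDL and FO, 1 member was higher and 0 were lower, where 6.04% of all rows tested were higher and 1.68% lower. At an unadjusted p under 0.05 these limma counts were 4 and 1, where 17.5% and 6.87% of all rows were. At 2-fold or more 0 passed, against 1.91% of all rows. By scaling, the split over all rows moved from 701 higher and 195 lower to 606 and 355 after upper quartile scaling and to 653 and 363 after quantile normalization. Between MZ and FO, 5 members were higher and 1 lower, where 14.3% of rows were higher and 12.8% lower, and 4 passed at 2-fold or more against 8.92% of rows. The unadjusted counts there were also 5 and 1, where 19.4% and 18.4% of all rows were, and so close to those for BDL over FO. Between BDL and MZ, 2 members were higher in BDL and 5 lower, where 16.5% and 11.6% of rows were, and 5 passed at 2-fold against 7.80%. The median log2 difference of the members was 0.23 for BDL over FO, 0.66 for MZ over FO and -0.71 for BDL over MZ, beside 0.05, -0.01 and 0.06 over all rows. Since the 3 Bcl2a1 rows are near copies that may share reads, they count as 3 here without being independent. The 3 comparisons share libraries.

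With the sort date as a replicate block, 4 members passed between BDL and FO in place of 1, as 20.5% of all rows then did (1806 higher and 572 lower). Bcl2, Mcl1 and Bbc3 were then higher in BDL and Pmaip1 lower. The blocked adjusted p is given with each of these genes.

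**Figure D2:**
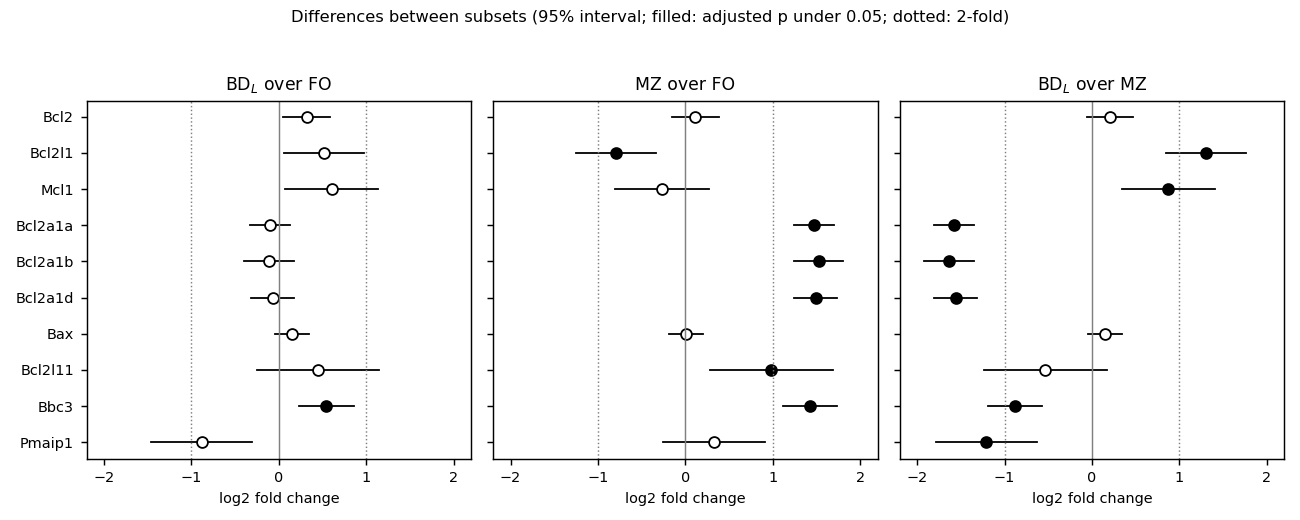
Log2 fold change (x axis) of each member for BDL over FO, MZ over FO and BDL over MZ, with 95% intervals; filled points have an adjusted p under 0.05 and dotted lines mark 2-fold. In the middle panel Bcl2a1a, Bcl2a1b, Bcl2a1d and Bbc3 lie beyond 2-fold, and in the left panel only Bbc3 is filled.

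Bcl2a1 was the clearest difference among the anti-apoptotic members. A1 is a short-lived, NF-kappaB-responsive survival protein of lymphocytes and granulocytes. Bcl2a1a stood at 14.8, 15.8 and 16.4 FPKM in FO replicates 1 to 3, at 14.8, 14 and 14.9 in BDL and at 37.8, 48.1 and 45.8 in MZ. Every MZ library lay above every other library, while FO and BDL overlapped. In MZ it rose 2.78-fold over FO (log2 difference 1.47 ± 0.10 SE, adjusted p = 2.12e-05).

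Bcl2a1b, the most abundant of the copies, stood at 43.4, 45.3 and 51.5 FPKM in FO, 42.9, 41.8 and 44.6 in BDL and 113, 154 and 139 in MZ. Bcl2a1d stood at 22.5, 23.4 and 26.5 FPKM in FO, 22.6, 22.4 and 23.6 in BDL and 58.5, 74.1 and 71.4 in MZ. Both show the same picture, with MZ apart and FO and BDL side by side. The MZ over FO difference was 1.52 ± 0.12 for Bcl2a1b (adjusted p = 5.13e-05) and 1.49 ± 0.11 for Bcl2a1d (adjusted p = 2.89e-05). Against BDL, the MZ level was 2.99-fold higher for Bcl2a1a, 3.11-fold for Bcl2a1b and 2.95-fold for Bcl2a1d (adjusted p = 1.91e-05, 4.49e-05 and 2.85e-05).

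Between BDL and FO no Bcl2a1 row passed. The log2 difference was -0.11 for Bcl2a1a (95% interval -0.34 to 0.13, adjusted p = 0.542), -0.11 for Bcl2a1b (-0.40 to 0.17, adjusted p = 0.599) and -0.07 for Bcl2a1d (-0.32 to 0.18, adjusted p = 0.705). These intervals leave out a difference of 1.5-fold in either direction.

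Summed over the 3 rows, Bcl2a1 reached 80.7, 84.5 and 94.4 FPKM in FO (86.5 ± 7.07 SD, n = 3), 80.3, 78.3 and 83.1 in BDL (80.6 ± 2.43) and 209, 276 and 256 in MZ (247 ± 34.3). The proportions between the copies hardly moved. Bcl2a1b gave 53.4% to 55.7% of the sum in any library, Bcl2a1d 26.8% to 28.6% and Bcl2a1a 17.4% to 18.7%. Fitted as a single row together with Bcl2a1c, the log2 difference was 1.503 ± 0.12 for MZ over FO (adjusted p = 4.32e-05), -1.61 for BDL over MZ (adjusted p = 3.85e-05) and -0.10 for BDL over FO (adjusted p = 0.617). Relative to Mcl1, the summed Bcl2a1 FPKM was 0.58 to 0.802 in FO, 0.312 to 0.495 in BDL and 1.88 to 3.25 in MZ. In MZ alone did Bcl2a1 exceed Mcl1 in every library.

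**Figure D3:**
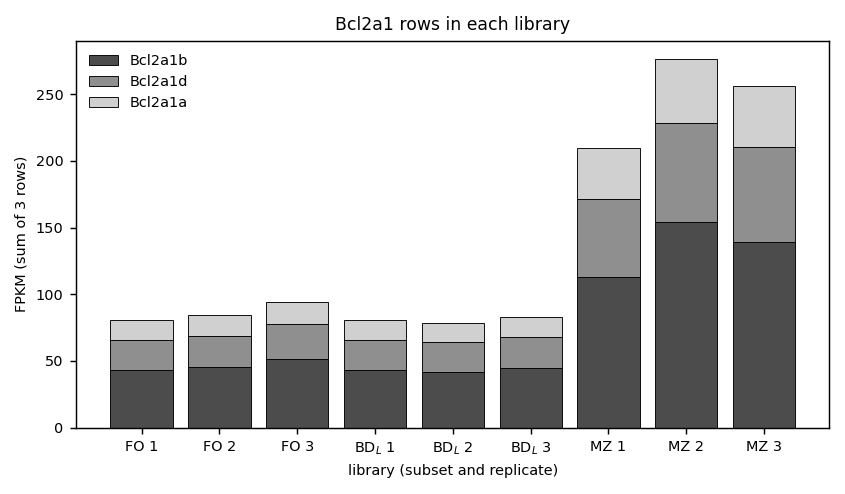
Summed FPKM (y axis, from 0) of the 3 Bcl2a1 rows in each of the 9 libraries, with grey shades for the copies. The MZ bars reach 209 to 276 FPKM and the FO and BDL bars 78.3 to 94.4, with the same order of the copies in every bar.

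Immediate early genes, which respond within minutes to receptor signals and to handling, were also measured beside Bcl2a1. Of 11 tested in MZ against FO, 5 were higher and 1 was lower (median log2 difference 0.43), where 14.3% and 12.8% of all rows were. For BDL over MZ 0 were higher and 5 lower (-0.61), where 16.5% and 11.6% of all rows were. For BDL over FO 1 was higher and 0 lower (-0.47), where 6.04% and 1.68% were. The list summed to 2003 to 2850 FPKM in MZ, 1933 to 2322 in FO and 1480 to 1736 in BDL. Their part in the Bcl2a1 difference was not tested.

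Bcl2l1, which encodes the long-lived survival protein BCL-XL, had the same order of subset means as Mcl1. It stood at 1.35, 1.23 and 1.32 FPKM in FO, 1.75, 2.18 and 1.78 in BDL and 0.651, 0.984 and 0.545 in MZ. The 3 subsets did not overlap, with BDL highest and MZ lowest. In MZ it fell by 0.79 ± 0.20 on the log2 scale against FO (adjusted p = 0.0197), and in BDL it rose 2.47-fold over MZ (adjusted p = 0.00189). The BDL over FO difference of 0.51 (0.06 to 0.97) did not pass (adjusted p = 0.158), also not with the sort date as a block (adjusted p = 0.0843). The MZ over FO call was lost when any FO library, MZ replicate 1 or MZ replicate 3 was left out, with an adjusted p of up to 0.0677. Bcl2l1 lies at chr2:152593052-152657464 on the minus strand (NCBIM37).

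Mcl1, whose product B cells need at every stage, stood at 129, 146 and 118 FPKM in FO, 184, 251 and 168 in BDL and 111, 143 and 78.9 in MZ. Every BDL library lay above every FO and MZ library, while FO and MZ overlapped. It rose 1.83-fold in BDL over MZ (log2 difference 0.87 ± 0.23, adjusted p = 0.0247). For BDL over FO the log2 difference was 0.60 ± 0.23 (0.07 to 1.14), with an adjusted p of 0.157 without a block and 0.0192 with the sort date as a block. For MZ over FO it was -0.27 (-0.80 to 0.26, adjusted p = 0.446). The BDL over MZ call was lost without BDL replicate 1 or 2 or MZ replicate 1 or 3 (adjusted p from 0.0503 to 0.0666), and when FO libraries did not enter the fit (adjusted p = 0.073). Mcl1 lies at chr3:95462643-95467099 on the plus strand.

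Bcl2, the founding member, differed little. It stood at 17.5, 19.8 and 20.2 FPKM in FO, 21.2, 28.2 and 22.7 in BDL and 19.9, 21.1 and 21.2 in MZ. The BDL libraries were the highest but for BDL replicate 1, which was level with the upper MZ libraries. The log2 difference was 0.32 for BDL over FO (0.05 to 0.58), with an adjusted p of 0.136 without a block and 0.0471 with it. It was 0.11 for MZ over FO (-0.15 to 0.38, adjusted p = 0.522) and 0.20 for BDL over MZ (-0.06 to 0.47, adjusted p = 0.233). Bcl2 lies at chr1:108434755-108610851 on the minus strand.

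The FPKM ratio of Bcl2 to Bcl2l1 was 21.5 to 39 in MZ, 13 to 16.1 in FO and 12.1 to 12.9 in BDL. The MZ libraries all lay above the others, and the BDL libraries lay below FO by a narrow margin.

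Bax, the effector, was the most even member. It stood at 45.1, 41.9 and 44.2 FPKM in FO, 51.4, 43.8 and 50.7 in BDL and 44.2, 45 and 42.4 in MZ. All subsets overlapped. The log2 difference was 0.15 for BDL over FO (-0.05 to 0.34, adjusted p = 0.321), 0.00 for MZ over FO (-0.19 to 0.20, adjusted p = 0.990) and 0.15 for BDL over MZ (-0.05 to 0.34, adjusted p = 0.239). The sign of the MZ over FO value turns with single libraries, and that of BDL over MZ under quantile normalization. The intervals leave out a change of 1.5-fold. Bax lies at chr7:52717065-52722268 on the minus strand.

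Bbc3 (PUMA), a p53 and FOXO target that binds all anti-apoptotic members, stood at 0.913, 1.25 and 0.939 FPKM in FO, 1.6, 1.44 and 1.58 in BDL and 2.71, 3 and 3.04 in MZ. No subset overlapped another, and the order was FO, BDL, MZ. In MZ it rose 2.68-fold over FO (log2 difference 1.42 ± 0.14, adjusted p = 0.0001235), and BDL lay below MZ by 0.88 ± 0.14 (adjusted p = 0.00199). It was also the member that passed between BDL and FO, by 0.54 ± 0.14 (adjusted p = 0.0482, and 0.0356 with the sort date as a block). That last call passed in 6 of 20 alternative settings, with adjusted p-values from 0.0349 to 0.168, and was lost without FO replicate 1 or 3 or without any BDL or MZ library. Bbc3 lies at chr7:16894965-16903554 on the plus strand.

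Bcl2l11 (BIM) stood at 11.3, 11.2 and 17.9 FPKM in FO, 16.3, 17.4 and 20.5 in BDL and 24.5, 17.6 and 41.1 in MZ. The ranges of all subsets touched, and the MZ libraries spread most. Averaged over libraries it was 1.98-fold higher in MZ than in FO (log2 difference 0.98 ± 0.31, adjusted p = 0.0452), the weakest of the MZ calls. It passed in 9 of 20 alternatives (adjusted p from 0.00604 to 0.144) and was lost without FO replicate 1 or 2, MZ replicate 1 or 3 or any BDL library. The value was 0.45 for BDL over FO (-0.25 to 1.15, adjusted p = 0.405) and -0.54 for BDL over MZ (-1.24 to 0.17), where the adjusted p was 0.233 without a block and 0.0483 with it. Relative to Bcl2, Bcl2l11 FPKM was 0.567 to 0.886 in FO, 0.616 to 0.901 in BDL and 0.835 to 1.94 in MZ. Bcl2l11 lies at chr2:127951774-127988283 on the plus strand.

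Pmaip1 (NOXA) ran the other way in BDL. It stood at 18, 19.1 and 28.3 FPKM in FO, 11.6, 8.55 and 15.4 in BDL and 25.1, 23.3 and 33 in MZ. The BDL libraries were below all others, while FO and MZ overlapped. In MZ it was 2.31-fold higher than in BDL (log2 difference for BDL over MZ -1.21 ± 0.25, adjusted p = 0.00861), a call held in 20 of 20 alternatives. For BDL over FO the log2 difference was -0.88 ± 0.25 (-1.46 to -0.30), lower on all 3 sort dates, with an adjusted p of 0.0736 without a block and 0.00573 with it. For MZ over FO it was 0.33 (-0.25 to 0.91, adjusted p = 0.393).

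Mcl1 and Pmaip1, whose proteins bind each other, thus lay on opposite sides in BDL. The FPKM ratio of Mcl1 to Pmaip1 was 15.8, 29.3 and 10.9 in BDL, 7.17, 7.62 and 4.16 in FO and 4.44, 6.16 and 2.39 in MZ. All BDL ratios exceeded all others. Over the 9 libraries the log2 levels of the pair had a Pearson correlation of -0.94, a description over libraries that share subsets and sort dates.

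Several members also followed the sort date. Bcl2l11 and Pmaip1 were highest in replicate 3 of all 3 subsets, by 0.43 and 0.37 on the log2 scale over the subset means. Mcl1 was highest in replicate 2 of all 3 subsets, by 0.30, and its mean deviation in replicate 3 was -0.28. Bbc3 had no common order, being highest in a different replicate in each subset. Replicate 3 libraries also carry differently worded labels. What else differed between the dates was not tested.

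**Figure D4:**
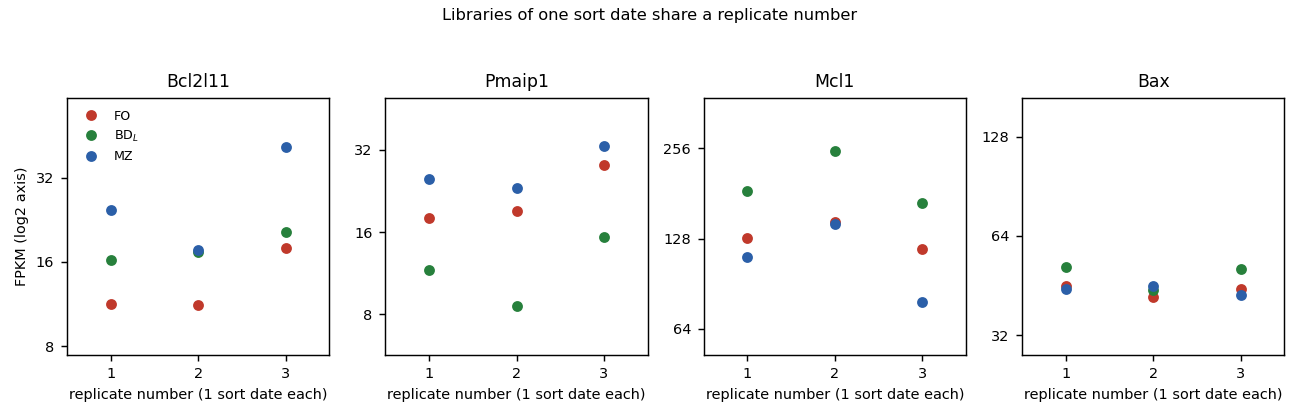
FPKM (y axis, log2 scale) of Bcl2l11, Pmaip1, Mcl1 and Bax by replicate number, each number being 1 sort date; colours give the subset. Bcl2l11 and Pmaip1 are highest at replicate 3 in every subset and Mcl1 at replicate 2, while the BDL points of Pmaip1 stay lowest and those of Mcl1 highest on every date.

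The rest of the BCL2 family was read from a list of 16 further genes, of which 11 were abundant enough to test. In MZ against FO 4 were higher and 2 lower (median log2 difference 0.36), where 14.3% and 12.8% of all rows were. In BDL against FO 1 was higher and 0 lower (0.15), where 6.04% and 1.68% were. In BDL against MZ 3 were higher and 4 lower (0.29), where 16.5% and 11.6% were. At an unadjusted p under 0.05 the BDL over FO counts were 3 and 0, where 17.5% and 6.87% of all rows were. For BDL over MZ the unadjusted shares of all rows were 23.8% and 16.1%. All these shares also apply to the lists that follow. Bid, which links death receptors to mitochondria, averaged 18.6 FPKM in FO, 27.1 in BDL and 54.4 in MZ, a rise of 1.53 ± 0.18 on the log2 scale for MZ over FO (adjusted p = 0.000367). Bmf, a BH3-only gene, went the other way, with 14.2 in FO, 14.3 in BDL and 4.94 in MZ (log2 difference -1.53 ± 0.16, adjusted p = 0.000228). The BH3-only genes therefore differed in direction between MZ and FO.

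Bcl2l15 averaged 0.161 FPKM in FO and 1.19 in MZ (log2 difference 2.28, adjusted p = 0.00322), and Bcl2a1c, the remaining Bcl2a1 copy, 1.36 and 3.204 (1.17, adjusted p = 0.00421). Bcl2l2, which encodes the survival protein BCL-W, also rose in MZ, by 0.71 (adjusted p = 0.00535), and Bnip3, a mitophagy receptor, fell by 1.10 (adjusted p = 0.0101). Bad, a BH3-only gene held inactive by growth factor kinases, was the gene of this list that passed between BDL and FO, at 7.16 against 4.47 FPKM (0.65 ± 0.16, adjusted p = 0.0494). Bak1, the partner effector of Bax, averaged 13.2 FPKM in FO, 20.8 in BDL and 16.8 in MZ, and its BDL over FO difference of 0.66 ± 0.17 missed the threshold (adjusted p = 0.0520). Between BDL and MZ, Bmf (1.53), Bnip3 (1.14) and Bcl2l13 (0.41) were higher in BDL, and Bcl2l15 (-1.86), Bcl2a1c (-1.42), Bid (-0.98) and Bcl2l2 (-0.90) lower. Bcl2l12 (13.8 FPKM in FO, 14.6 in BDL and 18.4 in MZ) and Bnip3l (22.0, 29.3 and 20.4) passed in no comparison. Bcl2l14 averaged 0.13 FPKM in FO, 0.373 in BDL and 0.419 in MZ, Bik and Hrk averaged at most 0.0654 in any subset, Bok was listed at 0 in FO and BDL, and Bcl2l10 was listed at 0 throughout.

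**Figure D5:**
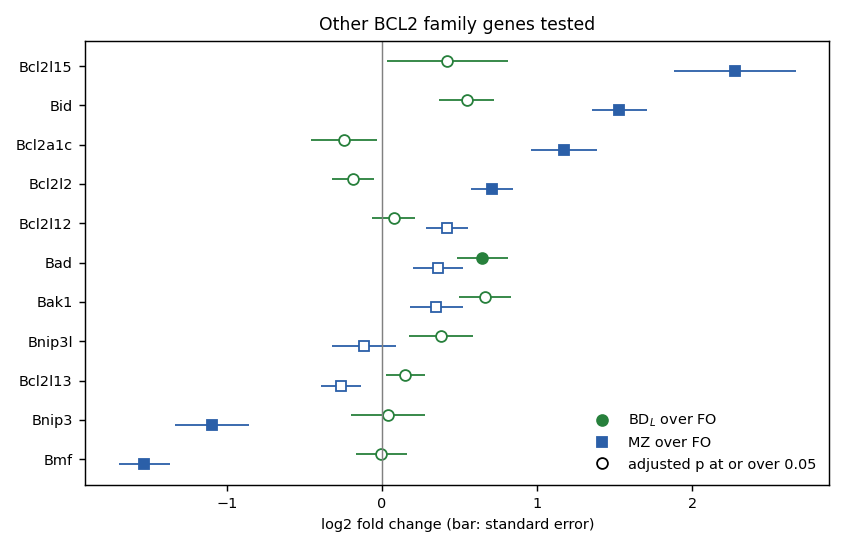
Log2 fold change (x axis, bars: standard error) of the 11 other BCL2 family genes tested, for BDL over FO (circles) and MZ over FO (squares); filled points have an adjusted p under 0.05. Bid and Bcl2l15 lie far to the right and Bmf and Bnip3 far to the left for MZ, while Bad is the filled point for BDL.

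Downstream, 14 apoptosome and caspase genes were tested. In BDL against FO 4 were higher and 0 lower (7 and 1 at an unadjusted p under 0.05; list median 0.26). Among them were Diablo, an antagonist of inhibitors of apoptosis (0.34, adjusted p = 0.0263), and Aifm1 (0.29, adjusted p = 0.0463). In MZ against FO 4 were higher, among them Casp6 (0.62) and Casp9 (0.50), and Casp8 fell by 0.34 (list median 0.08). In BDL against MZ, Casp2 (0.67), Apaf1 (0.46) and Diablo (0.30) were higher and Endog (-0.70) and Casp6 (-0.40) lower (list median 0.10).

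The inhibitors of apoptosis numbered 9, of which 5 were higher and 1 was lower in MZ compared with FO (list median 1.03). The 5 were Birc5 (1.91), which is a mitotic gene as well, and Naip6 (1.72), Naip1 (1.32), Naip5 and Naip2. The Naip genes encode related inflammasome receptors, and their separate levels are uncertain. Birc3, which encodes a ubiquitin ligase of TNF receptor signalling, fell by 0.63 in MZ (adjusted p = 0.00265) and by 0.46 in BDL (adjusted p = 0.0348), from 129 FPKM in FO. Between BDL and FO Birc5 (1.08) was higher as well (list median -0.12), and between BDL and MZ 0 were higher and 5 lower (0 and 5 at an unadjusted p under 0.05; list median -0.83), led by Naip6 (-1.55), Naip5 (-1.53) and Naip1 (-1.44).

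The p53 gene Trp53 was 47.6 FPKM in FO, 54.7 in BDL and 52.6 in MZ and passed in no comparison. Of 10 p53 genes and targets tested, Trp53inp1 (0.61) was higher in BDL than in FO and 0 were lower (2 and 2 at an unadjusted p under 0.05; list median -0.22). For MZ over FO 3 were higher and 2 lower (0.13), and for BDL over MZ 1 was higher and 2 lower (-0.16). Sesn2 (1.05), Zmat3 (0.78) and Trp53inp1 (0.75) rose in MZ, and Cdkn1a, the p21 cell cycle inhibitor, fell by 2.23 from 1.45 FPKM, as did Mdm2 by 0.32. Between BDL and MZ, Aen (0.47) was higher and Sesn2 (-1.43) and Zmat3 (-1.04) lower. Of 7 death receptor and adaptor genes tested, Cflar, a caspase-8 inhibitor, was the only gene to pass, lower in MZ than in FO by 0.42 (adjusted p = 0.0126). In BDL against FO and against MZ 0 passed in limma and 1 each had an unadjusted p under 0.05, and the list medians were -0.00 (BDL over FO), 0.05 (MZ over FO) and -0.05 (BDL over MZ).

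Among 15 regulators of the members, 1 was higher and 0 lower for BDL over FO (1 and 2 at an unadjusted p under 0.05; list median 0.01), 2 were higher and 4 lower for MZ over FO (-0.02), and 4 were higher and 3 lower for BDL over MZ (0.04). Tnfrsf13c, the BAFF receptor, averaged 107 FPKM in FO, 125 in BDL and 64.6 in MZ (MZ over FO -0.74, adjusted p = 0.0173). The NF-kappaB subunit genes Rela (-0.41) and Nfkb2 (-0.34) were also lower in MZ than in FO, and Ddit3 (0.51) was higher. Foxo1, which acts on Bcl2l11 and Bbc3 in other settings, was 64.0 FPKM in BDL and 35.2 in MZ (0.85, adjusted p = 0.00722). E2f1 rose in BDL (0.93, adjusted p = 0.00123) and in MZ (1.37, adjusted p = 1.93e-05) over FO. In BDL against MZ, Tnfrsf13c (0.96), Foxo1 and Nfkb1 (0.40) were higher and Cd40 (-0.60), E2f1 (-0.44) and Huwe1 (-0.30) lower.

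By Pearson correlation of log2 levels over the 9 libraries, which share subsets and dates, the rows most like each member were as follows. For Bcl2a1a, Bcl2a1b and Bcl2a1d they were the other copies (0.999), then Pik3r4 (0.996) for Bcl2a1a and Pde4d (0.997) for the other two. For Mcl1 they were Arpc5l (0.988), Zfp668 (0.985) and Pus3 (0.981), and for Bcl2l1 Lrrc42 (0.989), Rab22a (0.982) and Glul (0.982). For Bcl2 they were Ammecr1 (0.986), Rrm1 (0.963) and Hnrnpab (0.961). Pmaip1 was nearest to Plaur (0.982), the urokinase receptor, which averaged 157 FPKM in FO, 73.7 in BDL and 256 in MZ, and then to Ttc39b (0.974) and Gm13807 (0.971). Bbc3 was nearest to Aif1 (0.989), Sbf2 (0.986) and Nudt14 (0.983), Bcl2l11 to Mbnl2 (0.969), Il2rb (0.950) and Morf4l2 (0.946), and Bax to Mir6538 (0.940), Wdr74 (0.905) and Scarb1 (0.903). Mir6538 was listed at 0 in all FO and MZ libraries.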

How the data were processed

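Total RNA from sorted splenic B cells had been sequenced by the authors. They aligned reads to mm9 with TopHat2 2.1.0, per the labels, and the deposited table gives FPKM from Cufflinks for each gene and library. The Cufflinks version, the annotation and the treatment of multi-mapping reads are not given in the sources used here. The labels describe single-end, unstranded libraries, whereas the methods of the study name a stranded kit. A deposited table of Cuffdiff comparisons holds the authors' own fold changes and p-values and was not used.

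Columns summed to between 446033 and 517208 FPKM and were not rescaled. Values were analysed as log2(FPKM + 0.1) in R 4.3.3 with limma 3.58.1 (lmFit, contrasts, eBayes with a trend), with subset as the only term. Testing covered the 11597 rows that averaged 0.5 FPKM or more across 9 libraries, and Benjamini-Hochberg adjustment ran over all of these. A stricter call required at least 2-fold. The exact two-sided permutation test of 3 libraries against 3 cannot go below p = 0.1, the value it gave wherever groups did not overlap.

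Depth was estimated from FPKM steps of 1454 single-transcript genes (3000 nt or longer), of whose low values 67.8% to 78.4% lay within 0.1 of a whole fragment. A step fixed beforehand would give 20% by chance. Each library's step was instead chosen to make this share largest, so the 20% is too low a comparison. Fragment numbers are therefore approximate.

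The labels give each replicate number the same sort date in every subset, so the numbers pair libraries by day. Deviations of same-day libraries from their subset means correlated at 0.15, 0.05 and -0.06 (BDL with FO, replicates 1 to 3), 0.02, 0.01 and 0.01 (MZ with FO) and 0.10, 0.24 and 0.18 (BDL with MZ).

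The members, gene lists and tests were chosen with earlier results of these data known. All members are named, and of each list up to 3 genes per direction and comparison with the largest change among those that passed with the same direction on all 3 dates, apart from some that are not reported here. Other BCL2 family genes that passed, and Bak1, are named too, with the 3 rows most like each member. Lck, Cd93, Trp53, Aifm1, Naip2 and Naip5 were added after their values were seen. Gene positions came from GENCODE M1 on NCBIM37 and promoters from RefSeq. The fit was tested on simulated data. Python 3.11.15 with matplotlib 3.10.9 drew the figures.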

Additional observations from a re-analysis of the deposited data

How the results depend on the processing

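The table holds FPKM and no counts, so fragment numbers are approximate and no count test was possible. There are 3 libraries per subset, all pooled from mice of the same sort dates.

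The number of members that passed between BDL and FO depended on the setting. It was 1 as reported, 4 with the sort date as a replicate block, and 0 with 1 FPKM added before the logarithm, a minimum mean of 1 FPKM, no minimum, the 6 libraries of the compared subsets alone, upper quartile scaling, quantile normalization or a 2-fold minimum. Leaving out single libraries gave 0 to 1. The cause was not tested. Paired by sort date, the rows called among all tested went from 701 higher and 195 lower to 1806 and 572 for BDL over FO, and to 3043 and 1909 from 1909 and 1346 for BDL over MZ. The block also brought Bcl2l11 under the threshold between BDL and MZ and changed no other call among the members. The members that passed between MZ and FO (6) and between BDL and MZ (7) stayed within 1.5 times those counts in every alternative run. Bcl2a1a, Bcl2a1b and Bcl2a1d passed in 21 of 21 alternatives in both MZ comparisons. Bbc3 (both MZ comparisons), Bcl2l1 and Pmaip1 (BDL over MZ) passed in 20 of 20, Bcl2l1 (MZ over FO) and Mcl1 (BDL over MZ) in 15.

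The Bax difference changed sign, never past the threshold. For MZ over FO it ranged from -0.0273 to 0.0276 when single libraries were left out, being -0.0273, -0.00254 and -0.0159 without FO replicate 2, MZ replicate 1 and MZ replicate 2, and for BDL over MZ it was -0.000297 under quantile normalization.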
